A study of Drosophila melanogaster with 12 samples.

Results

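Genes of mitosis and cytokinesis were followed in Drosophila S2 cells after RNA interference. S2 is a cultured line from late embryos with features of hemocytes, the blood cells of the fly. The genes were given as 45 symbols of cyclins, mitotic kinases, spindle, checkpoint, condensin and cytokinesis proteins, and a gene was included where a row of the deposited tables held its symbol. This found 44 genes among the 14542 rows of the SIN3 table and the 14540 rows of each of the other tables. All 44 rows held 1 symbol and were tested by the authors in all 3 tables, so that no member was lost to a filter on low values. The symbol fzr, the Cdh1-type activator of the anaphase-promoting complex, had no row. RefSeq lists rap as a synonym of fzr, and the row of that name, which lies outside the rule, stood at 15.3 FPKM in GFP cells and 12.3 FPKM in the samples labelled double knockdown.

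The labels gave the genotype of the cells as wild type. The cells took up double-stranded RNA (dsRNA) for 4 days in Schneider's medium with fetal bovine serum. Controls received dsRNA against GFP. The other groups received dsRNA against Sin3A, against Sam-S, or against both. The authors combined the 3 samples of each of the 4 groups into 1 value per gene and group, so no value below has a spread between replicates. Levels are FPKM, a level scaled for transcript length and for the number of fragments in the library, and every difference is the log2 of knockdown FPKM over control FPKM within 1 table.

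Cell division is driven by cyclin-dependent kinases, whose activity rises when cyclins accumulate and when the Cdc25-type phosphatase String removes inhibitory phosphates. Condensins then compact the chromosomes, kinesins and microtubule proteins build the spindle, and Polo and Aurora kinases coordinate both. The spindle checkpoint holds the anaphase-promoting complex in check until every kinetochore is attached. Its release destroys securin and cyclin B, separase opens cohesin, and a contractile ring guided by the central spindle divides the cell. Many of these mRNAs are most abundant in cells in or near mitosis, so in a bulk sample fewer dividing cells and less mRNA per dividing cell cannot be told apart.

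Of the targeted genes, Sam-S (chromosome 2L, 106903 to 114432, build dm3) had a control level of 242 FPKM in the SAM-S table and 62.0 FPKM after the knockdown. It stood at 91.2 FPKM in the samples labelled double knockdown and at 484 FPKM, against 239.9 FPKM in GFP cells, in those labelled SIN3 knockdown. Sin3A stood at 67.9 FPKM in GFP cells and 61.7 FPKM in samples labelled SIN3 knockdown, and at 68.5 and 64.7 FPKM in the double table. Its mRNA therefore does not bear out the Sin3A part of those labels, and a loss of Sin3A in these samples rests on the label. The fall of Sam-S goes with its part of the double knockdown label. Control levels of the mitosis and cytokinesis genes in the SAM-S and double tables were 1.003 to 1.014 times those of the SIN3 table. Of 12 hemocyte markers with a row, 10 reached 1 FPKM in GFP cells, while Hml (0.787 FPKM) and the crystal cell gene lz (0.0261 FPKM) did not. The summed level of the hemocyte markers was 26378 FPKM in GFP cells and 11277 FPKM in the samples labelled double knockdown, and nearly all of this difference was that of Nplp2, which fell from 25185 to 10156 FPKM. Without Nplp2 the sums were 1193 and 1120 FPKM in the double table and 1180 and 903 FPKM in the SIN3 table. Of 11 tested hemocyte markers 4 fell in the double table (Hml, Pxn, Sr-CI and Nplp2), beside 6.14% of all tested rows. In the SIN3 table the same genes and vkg fell (5 of 11), beside 4.35% of all tested rows. None of the markers rose, and their values in the double table ran from -1.397 for Hml to 0.38 for Pvr. Their part in the results was not tested. Of 3 neuron, 4 muscle, 6 germline and 3 fat body markers with a row, 1, 1, 3 and 0 reached 1 FPKM.

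Most genes of mitosis and cytokinesis were lower in the samples labelled double knockdown. In these samples 25 of the 44 members fell and none rose at a q under 0.05 in the authors' deposited table, where 6.14% of the 8158 tested rows fell and 3.48% rose. The genes that fell stood between 43.0% and 69.9% of their control level, from Cks30A to CycB. Of all members 42 had a negative log2 fold change, and the median was -0.58, against -0.01 and 51.6% negative values over all tested rows. At least 1.5-fold lower were 47.7% of members and 13.2% of all tested rows.

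In the samples labelled SIN3 knockdown 13 of the 44 members fell and none rose at a q under 0.05 in the authors' deposited table, where 4.35% of the 8123 tested rows fell and 3.34% rose. Negative values were found for 40 members, with a median of -0.48 against -0.01 over all tested rows. The genes that fell stood between 47.1% and 68.9% of control.

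After SAM-S knockdown no member was called in Cuffdiff's test. Of the 7957 tested rows 0.0754% fell in the authors' deposited table and 0.088% rose, so that this table had few calls of any kind, 13 in all. None of the 44 members had an unadjusted p under 0.05, against 223 tested rows in all, or 2.80%. The lowest p of a member was that of SMC2, 0.0703 in the authors' deposited table, at a log2 fold change of -0.31. Values were negative for 36 of 44 members and 54.8% of all tested rows, with medians of -0.13 and -0.02. The members lay close together in this table, from -0.31 for SMC2 to 0.16 for cid.

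**Figure D1:**
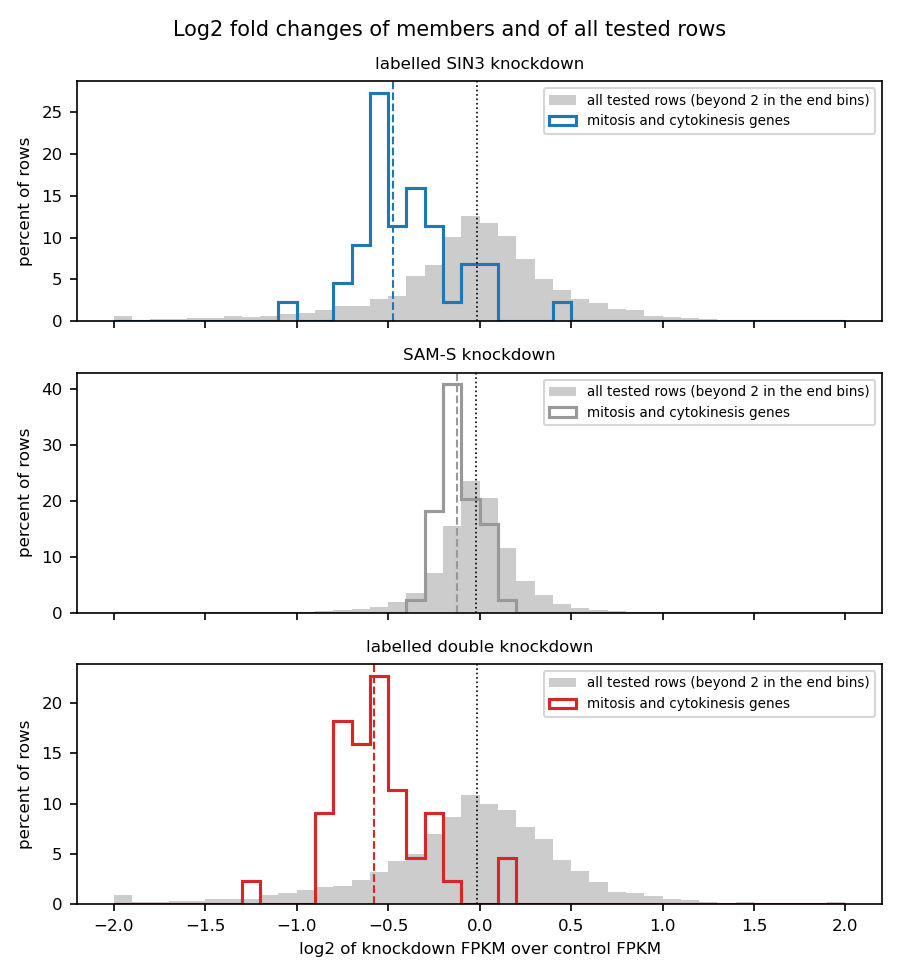
Percent of rows by log2 of knockdown over control FPKM, in bins of 0.1, for all tested rows (grey) and for the 44 mitosis and cytokinesis genes (coloured outline) in each table; dotted and dashed lines mark the medians of all tested rows and of the members. The members' medians lie at -0.48, -0.13 and -0.58 from top to bottom, and the medians of all tested rows near 0.

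The number of calls rests on the p-value that the authors deposited. The normal quantile of that p was a median of 1.73 times the deposited statistic in the SIN3 and double tables, and with a normal p taken from the statistic itself no member was called in any table. On that scale 30 and 47 rows of the whole SIN3 and double tables fell. Because the samples of a group were combined, it cannot be told whether either p measures the spread between samples.

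Among the cyclins, cyclin-dependent kinases (Cdks) and their regulators, Cks30A changed most. Cks30A (chromosome 2L, 9330763 to 9331981), a small subunit that binds the mitotic kinase Cdk1, stood at 62.3 FPKM in GFP cells and 29.4 FPKM in samples labelled SIN3 knockdown. In the double table it stood at 63.2 and 27.2 FPKM, and in the SAM-S table at 62.8 and 57.4 FPKM. The 2 falls, -1.09 and -1.22, had q = 0.00172 and q = 0.00157 by the authors' deposited tables, the smallest in each. Every row at the smallest deposited p has these q values, among them Sam-S in both tables and polo in the double table. Cks30A was the only member that changed at least 2-fold in either table. The other Cks gene of the fly, Cks85A, which was looked up after these values were seen, stood at 23.3 FPKM in GFP cells and 31.0 FPKM in the samples labelled double knockdown, with q = 0.865 by the authors' deposited table.

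The gene of Cdk1, cdc2, fell in the samples labelled double knockdown from 91.1 to 61.0 FPKM, with q = 0.0372 by the authors' deposited table. In the SIN3 table cdc2 stood at 64.6 FPKM against 90.1 FPKM and was not called. For cdc2c, encoding Cdk2 of the DNA synthesis phase, the level fell from 55.0 to 35.5 FPKM in the samples labelled double knockdown (-0.63, q = 0.0387 by the authors' deposited table). Its SIN3 and SAM-S values were -0.38 and -0.17, and the SAM-S values of cdc2 and CycB were -0.10 and -0.09.

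CycB, the B-type cyclin that drives entry into mitosis, fell from 114 to 79.4 FPKM in the samples labelled double knockdown (-0.52, q = 0.0392 by the authors' deposited table). CycA, the A-type mitotic cyclin, stood at 120 and 102 FPKM in the same table (-0.24) and at 119 and 116 FPKM in the SIN3 table (-0.03), without a call. CycB3 was less abundant, at 8.54 and 6.66 FPKM (-0.36). Whether CycA and CycB differed in their change was not tested.

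Cyclin E, which partners Cdk2, gave unlike values in the tables. CycE (chromosome 2L, 15727762 to 15748155) stood at 25.1 and 24.3 FPKM in the SIN3 table (-0.04) and at 25.2 and 20.7 FPKM in the SAM-S table (-0.28). In the double table CycE fell from 25.3 to 16.5 FPKM (-0.62, q = 0.0258 by the authors' deposited table). Of all members, CycE had the largest difference between the log2 fold changes of the double and SIN3 tables, -0.57. This difference was not tested. CycD, which acts with Cdk4 in growth, was one of the 2 members above 0 in the double table, at 37.6 and 40.6 FPKM (0.11). The phosphatase gene stg stood at 19.3 and 13.9 FPKM in the double table (-0.47) and at 19.0 and 13.4 FPKM in the SIN3 table (-0.51), called in neither.

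**Figure D2:**
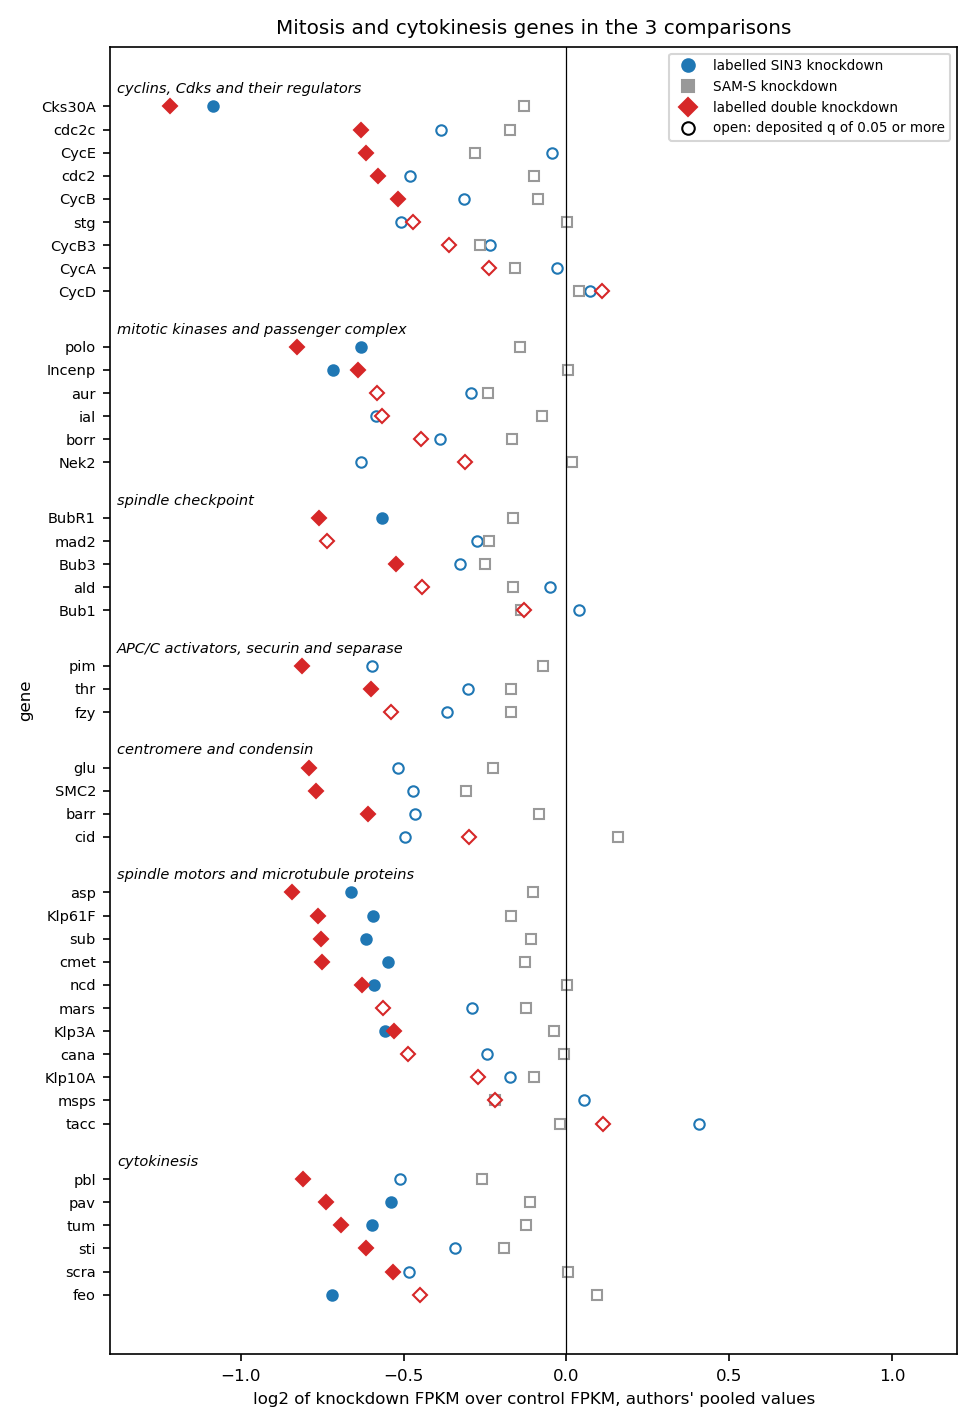
Log2 of knockdown over control FPKM (horizontal axis) of each of the 44 genes (vertical axis, grouped by role) in the 3 tables, from the authors' pooled values with no replicate spread; filled symbols mark a deposited q under 0.05. Red diamonds lie to the left of 0 for 42 genes, blue circles for 40, and no grey square is filled.

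Among the mitotic kinases and the chromosomal passenger complex, polo and Incenp fell in both tables of samples labelled with Sin3A dsRNA. The kinase gene polo (chromosome 3L, 20302754 to 20306566) stood at 118 FPKM in GFP cells, 76.0 FPKM in samples labelled SIN3 knockdown, 107 FPKM after SAM-S knockdown and 67.0 FPKM in the samples labelled double knockdown. Its log2 fold change in the double table was -0.83, with q = 0.00157 by the authors' deposited table. Incenp, the scaffold of the passenger complex, fell from 48.9 to 29.7 FPKM in the SIN3 table (-0.72, q = 0.00311 by the authors' deposited table) and from 49.3 to 31.6 FPKM in the double table (-0.64, q = 0.0126 by the authors' deposited table). In the SAM-S table Incenp stood at 49.2 against 49.0 FPKM.

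The other passenger genes had negative values that did not pass the test. The Aurora B gene ial stood at 54.7 and 36.9 FPKM in the double table, with q = 0.054 by the authors' deposited table, just above the threshold. In the SIN3 table its log2 fold change was -0.58 and its q 0.0792 in the authors' deposited table. The Borealin gene borr had -0.39 and -0.45 in these tables. Aurora A, encoded by aur and acting at centrosomes, stood at 33.9 and 22.7 FPKM in the double table (-0.58), with q = 0.488 by the authors' deposited table. Nek2, a kinase gene at 5.26 FPKM in GFP cells, had -0.63 in the SIN3 table and -0.31 in the double table, without a call.

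Of the 5 spindle checkpoint genes, 2 fell in the samples labelled double knockdown and 1 in those labelled SIN3 knockdown. Over all tested rows 6.14% and 4.35% fell in these tables, and counts in so small a group rest on single genes. BubR1 (chromosome 2R, 1856604 to 1861890), a checkpoint kinase-like protein that binds the Cdc20 activator, fell from 26.2 to 17.7 FPKM in the SIN3 table (-0.57, q = 0.0289 by the authors' deposited table). In the double table it fell from 26.5 to 15.7 FPKM (-0.76, q = 0.00157 by the authors' deposited table). Its partner Bub3 fell in the double table from 132 to 92.1 FPKM (-0.52, q = 0.0379 by the authors' deposited table). The SAM-S values of BubR1 and Bub3 were -0.16 and -0.25. Bub1, a related kinase gene, stood at 21.8 and 19.9 FPKM in the double table (-0.13) and had 0.04 in the SIN3 table. The checkpoint gene mad2 stood at 85.2 and 51.2 FPKM in the double table (-0.74), but its q was 0.095 in the authors' deposited table. The Mps1 kinase gene ald had -0.44, with q = 0.832 by the authors' deposited table.

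The genes that start anaphase gave 2 falls. Securin, encoded by pim (chromosome 2L, 10362989 to 10364092), fell from 28.8 to 16.4 FPKM in the samples labelled double knockdown (-0.81, q = 0.0276 by the authors' deposited table). In the SIN3 table pim stood at 28.4 and 18.8 FPKM (-0.60) without a call. The gene thr, which encodes a subunit of the fly separase complex, fell in the double table from 17.6 to 11.7 FPKM (-0.60, q = 0.0258 by the authors' deposited table). The SAM-S values of pim and thr were -0.07 and -0.17. The Cdc20 gene fzy stood at 70.04 and 48.3 FPKM (-0.54), with q = 0.343 by the authors' deposited table.

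All 3 condensin genes of the list fell in the samples labelled double knockdown and none was called in those labelled SIN3 knockdown. The ATPase subunit gene glu, the fly SMC4, fell from 70.8 to 40.996 FPKM (-0.79, q = 0.00859 by the authors' deposited table). SMC2, its partner ATPase, fell from 42.0 to 24.7 FPKM (-0.77, q = 0.00157 by the authors' deposited table). The kleisin gene barr fell from 32.6 to 21.4 FPKM (-0.61, q = 0.0326 by the authors' deposited table). Their values in the SIN3 table lay between -0.52 and -0.46, with q from 0.0637 to 0.141 in the authors' deposited table. Their values after SAM-S knockdown were -0.23 for glu, -0.31 for SMC2 and -0.08 for barr. The centromeric histone gene cid, at 5.14 FPKM in GFP cells, had -0.50 in the SIN3 table, 0.16 after SAM-S knockdown and -0.30 in the double table, without a call.

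Spindle motors and microtubule proteins held 6 of the 13 falls in the SIN3 table and 6 of the 25 in the double table, of 11 members. The falls over all tested rows were 4.35% and 6.14%. The spindle pole gene asp (chromosome 3R, 20579625 to 20586235) fell from 16.2 to 9.05 FPKM in the samples labelled double knockdown (-0.84, q = 0.00283 by the authors' deposited table) and from 16.0 to 10.1 FPKM in the SIN3 table (-0.66). Klp61F, the kinesin-5 motor that pushes spindle poles apart, fell from 64.4 to 37.9 FPKM (-0.76) in the double table and from 63.7 to 42.3 FPKM (-0.59) in the SIN3 table. Its q values were 0.00157 and 0.0104 in the authors' deposited tables.

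The kinesin-6 gene sub fell by 0.62 on the log2 scale in the SIN3 table and 0.75 in the double table, from a control level of 23.6 FPKM. The minus-end-directed motor gene ncd fell from 126 to 83.5 FPKM in the SIN3 table (-0.59) and from 127 to 82.3 FPKM in the double table (-0.63). Klp3A, a motor of the central spindle, fell from 51.4 to 34.98 FPKM (-0.56) and from 51.9 to 35.9 FPKM (-0.53) in these tables. The q values of these 3 genes ran from 0.00782 to 0.0481 in the authors' deposited tables.

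The CENP-E-type kinesin genes cmet and cana lie next to each other on chromosome 2L with 777 bases between their rows. The more abundant cmet, at 34.0 FPKM in GFP cells, fell to 20.2 FPKM in the samples labelled double knockdown (-0.75, q = 0.00157 by the authors' deposited table). In the SIN3 table cmet fell from 33.6 to 23.0 FPKM (-0.55). Its neighbour cana stood at 7.64 and 5.45 FPKM in the double table (-0.49), with q = 0.12 by the authors' deposited table. The split of reads between paralogs is uncertain where their sequences match, and how far cmet and cana match was not examined.

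None of these called spindle genes was called after SAM-S knockdown. Their values there were -0.10 for asp, -0.17 for Klp61F, -0.11 for sub, -0.13 for cmet, 0.001 for ncd and -0.04 for Klp3A. The median over all tested rows of that table was -0.02.

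Not all spindle genes were called, although 10 of the 11 had a negative value in the double table. The microtubule-binding partners msps and tacc, at 100.3 and 164 FPKM in GFP cells, stood at 86.1 and 177 FPKM in the double table. In the samples labelled SIN3 knockdown tacc had the highest value of all members, 215 against 162 FPKM (0.41), with q = 0.22 by the authors' deposited table. The depolymerising kinesin gene Klp10A had -0.17 and -0.27 in the SIN3 and double tables, and mars, a HURP-type spindle protein, had -0.29 and -0.56, none of them called.

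Cytokinesis genes had negative values throughout the SIN3 and double tables, with 3 and 5 of 6 members called lower, beside 4.35% and 6.14% of all tested rows. The centralspindlin genes pav, a kinesin-6 motor, and tum, its partner in the complex, fell in both tables. The level of pav (chromosome 3L, 4242734 to 4246233) was 54.0 and 37.2 FPKM in the SIN3 table (-0.54, q = 0.0364 by the authors' deposited table) and 54.6 and 32.7 FPKM in the double table (-0.74, q = 0.00157 by the authors' deposited table). For tum it was 83.0 and 54.8 FPKM (-0.60) and 83.9 and 51.9 FPKM (-0.69).

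The cytokinesis gene pbl, whose protein binds centralspindlin, fell from 44.0 to 25.2 FPKM in the double table (-0.81, q = 0.00157 by the authors' deposited table). The citron kinase gene sti fell there from 33.0 to 21.6 FPKM (-0.61) and the anillin gene scra from 72.8 to 50.3 FPKM (-0.53). In the SIN3 table these 3 genes had values from -0.51 to -0.34 and were not called. The microtubule bundler gene feo, a PRC1 relative, was the only member called in the SIN3 table and not in the double table. It fell from 23.8 to 14.5 FPKM in the former (-0.72, q = 0.0129 by the authors' deposited table) and stood at 24.1 and 17.6 FPKM in the latter (-0.45, q = 0.173 by the authors' deposited table). The difference between the tables was not tested. After SAM-S knockdown feo, pav and tum had 0.09, -0.11 and -0.13, and pbl, sti and scra had -0.26, -0.19 and 0.004.

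The 18 members called in no table included all 4 that were under 10 FPKM in GFP cells, CycB3, Nek2, cid and cana. As a description of precision, the log2 fold change was divided by the normal quantile of the deposited p. The standard error (SE) implied in this way had a median of 0.20 over the members of the double table and 0.24 over all tested rows. It was largest for ald (0.67), mars (0.43) and aur (0.42), followed by cid (0.37) and fzy (0.32). Of these, ald, mars, aur and fzy share their locus with another row (alt, drk, CG12213 and cact), as do 14 members in all, and reads of overlapping genes cannot be told apart where strand was not used. Of the 30 members with no overlapping row, 17 were called in the double table, and the median of the 30 was -0.55. Of the 14 with an overlapping row, 8 were called there, with a median of -0.61. The median implied SE in that table was 0.22 with an overlapping row and 0.20 without. Of the 19 members not called there, 5 (mad2, aur, ial, mars and fzy) had a log2 fold change below the highest value of a called gene, -0.52.

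**Figure D3:**
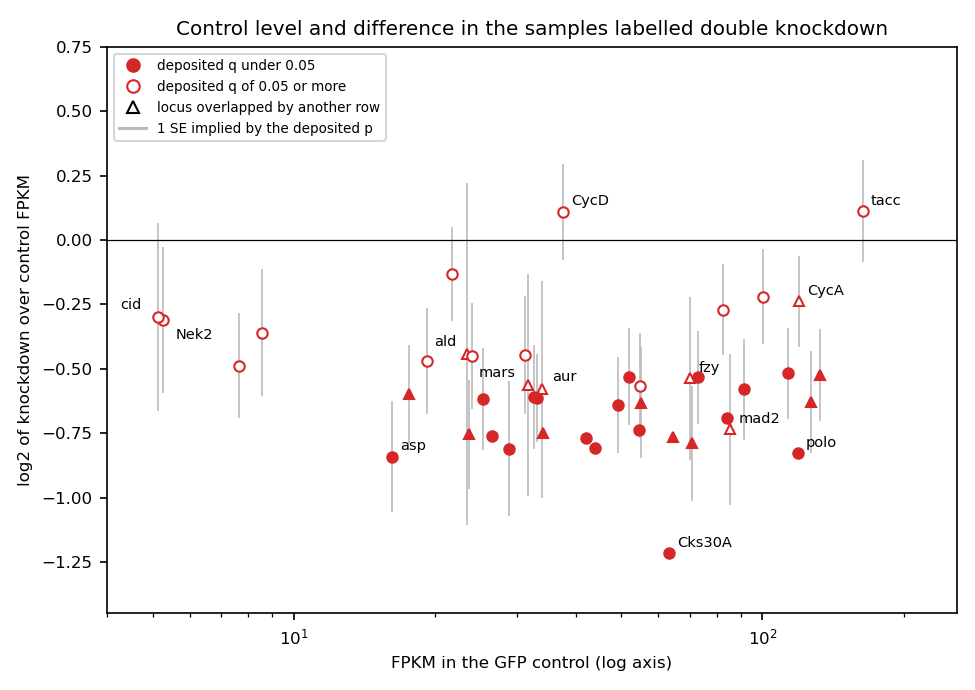
Log2 of knockdown over control FPKM in the samples labelled double knockdown (vertical axis) against FPKM in the GFP control (horizontal log axis) for the 44 genes, with bars of 1 SE implied by the deposited p where it can be computed (35 genes) and triangles for loci that another row overlaps. Called genes lie between -1.22 and -0.52 at control levels from 16.2 to 132 FPKM, and the 4 genes under 10 FPKM are open symbols.

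Control levels of the members ran from 5.14 FPKM for cid to 164 FPKM for tacc in the double table, with a median of 43.0 FPKM, above the 24.2 FPKM of all tested rows. Over the 5995 tested rows within this range of levels, the median log2 fold change was 0.01 and 48.8% were negative. The members lay on all large chromosome arms. There were 12 on 2L, 10 on 2R, 7 on 3L, 10 on 3R and 5 on X.

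The comparisons share their GFP samples, and the tables were normalized separately, so their values stand side by side without a test. The log2 fold change of the double table was below that of the SIN3 table for 36 of 44 members (81.8%), with a median difference of -0.19. Over the 7813 rows tested in all tables this difference had a median of -0.02 and was negative for 53.4%. The double knockdown minus the sum of the single knockdowns had a median of -0.04 over the members and 0.00 over all rows. It was negative for 30 of 44 members and for 49.8% of all rows. Over the members it ran from -0.29 for CycE to 0.30 for Nek2. These extremes are of the size of 1 to 2 implied SEs of a single value. The SE of the combined difference itself, which joins the values of all tables, was not computed.

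Other genes of cell division were listed by complex, without any member. Of 129 listed symbols 111 had a row. Of 109 tested rows 12 fell in the double table and none rose, with a median of -0.27. Of the 109 rows tested in the SIN3 table, 4 fell and none rose, with a median of -0.17, and in the SAM-S table none of 107 was called or reached a p under 0.05 before adjustment (median -0.07). The SIN3 count of 3.67% lies below the 4.35% of all tested rows, whereas the 11.0% of the double table compares with 6.14%.

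Kinetochore genes had negative values for all 11 tested members in each table. Cenp-C, which links centromeric chromatin to the outer kinetochore, fell in the SIN3 table from 18.3 to 11.7 FPKM (-0.65, q = 0.0183 by the authors' deposited table). In the double table it fell from 18.5 to 10.9 FPKM (-0.77, q = 0.00283 by the authors' deposited table). Other kinetochore genes that fell in the double table were Ndc80 (-0.65) and Spc105R (-0.74) of the microtubule-binding outer plate and rod (-0.88) of the dynein-recruiting complex.

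The condensin subunit gene CAP-D2 (chromosome 3R, 25501399 to 25508000) fell from 25.3 to 15.4 FPKM in the SIN3 table (-0.72) and from 25.6 to 13.5 FPKM in the double table (-0.93), while the other 3 rows of its list had no call. CAP-D2 lies 257 bases beyond the row of Bub3. Of the cohesin list SMC1 fell in the double table, from 41.4 to 29.0 FPKM (-0.51), as 1 of 10 tested. That share is near the 6.14% of all tested rows.

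Among other spindle genes nod, a chromosome-associated kinesin, fell from 15.9 to 8.18 FPKM in the SIN3 table (-0.96, q = 0.0055 by the authors' deposited table) and from 16.1 to 7.82 FPKM in the double table (-1.04). The kinesin-8 gene Klp67A (-0.57) and mud (-0.71), a spindle orientation gene, fell in the double table.

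Of 18 tested regulators of mitotic entry and exit, Cdk4, the partner of cyclin D, fell from 33.4 to 17.7 FPKM in the SIN3 table (-0.92, q = 0.00311 by the authors' deposited table). In the double table it fell from 33.8 to 15.04 FPKM (-1.17, q = 0.00157 by the authors' deposited table), while CycD stood at 0.11. The Greatwall kinase gene gwl (-0.69) and the merged row of the checkpoint kinase gene grp and squ (-0.58) also fell there. The inhibitory kinase genes wee and Myt1 stood at -0.17 and 0.11.

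No gene was called among the 6 tested subunits of the anaphase-promoting complex and its partners, whose medians were -0.11 and -0.06 in the SIN3 and double tables. The same held for the 15 rows of gamma-tubulin ring and augmin genes, with medians of -0.25 and -0.37, the 10 centrosome genes (-0.20 and -0.29) and the 15 rows of further cytokinesis genes (-0.09 and -0.09). The 11 genes of the E2F, Rbf and Myb-MuvB regulators had medians of -0.16 and -0.20 without a call. Their member E2f, an activator of cell cycle genes, stood at 44.6 and 43.4 FPKM in the double table, and Myb at 82.1 and 70.3 FPKM. Of neighbouring genes, vih, the ubiquitin-conjugating enzyme gene 157 bases from sti, stood at 48.4 and 52.7 FPKM in the double table, where sti fell.

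**Figure D4:**
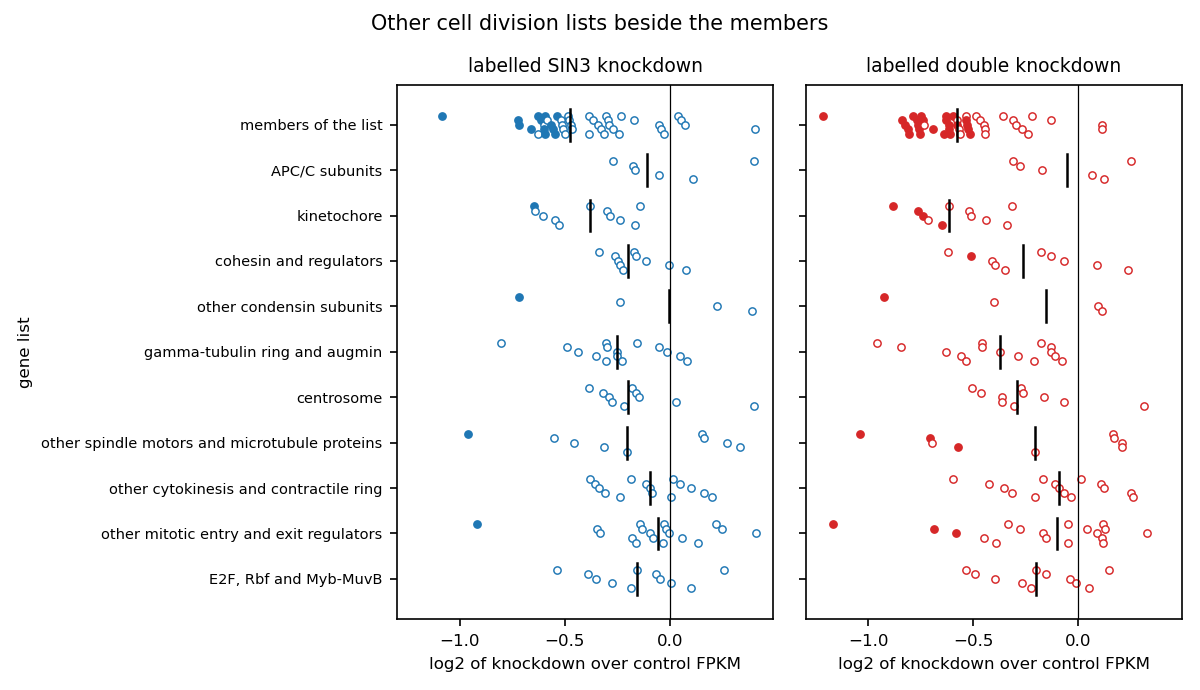
Log2 of knockdown over control FPKM (horizontal axis) of the 44 members and of tested genes in 10 other cell division lists (vertical axis) in the SIN3 and double tables; each point is 1 row, filled at a deposited q under 0.05, and bars are list medians. The members' medians lie at -0.48 and -0.58, the kinetochore list's at -0.38 and -0.62, and those of the remaining lists between -0.37 and 0.

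For comparison, of 38 DNA replication genes 3 fell in the SIN3 table and 13 in the double table and none rose, with medians of -0.38 and -0.49. The genes that fell were 7.89% and 34.2% of this list, against 4.35% and 6.14% of all tested rows. After SAM-S knockdown their median was -0.13, none was called, and none reached a p under 0.05 before adjustment.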

How the data were processed

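RNA-seq values of 12 samples in 4 groups were analysed as 3 tables, each comparing the pooled samples of 1 knockdown with those of the GFP control. bcl2fastq, Cuffdiff and genome build dm3 are named, without versions, in the submitters' processing notes; the aligner, annotation and strand setting were not given in the sources used here. Deposited tables hold FPKM per gene and condition, per the file headers. They also hold the deposited test statistic, which is a score without fixed bounds, and a p-value with its q-value. Fragment counts are not analysed here, so depth is unknown and counting error has no interval here.

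The log2 of knockdown over control was taken from deposited FPKM, with no pseudocount. A gene was called when tested by the authors with a deposited q under 0.05. The smallest deposited p was 5e-05. Gene symbols that had become dates (5) were restored by locus, and 1 was added to each start. Against the SIN3 table, control FPKM were a median of 1.005 times as high in the SAM-S table and 1.011 times in the double table. Members and lists were chosen with earlier results of these data known, and no list was tested as a set. Named were all members, the called genes of the other cell division lists, Sin3A and Sam-S. Cks85A, rap, wee, Myt1, E2f, Myb, vih and the single hemocyte markers were named by choice after seeing values, and the DNA replication list is given by counts only. The p adjustment and the implied SE were run on simulated data whose p came from the same normal formula. That run checks the arithmetic only, and cannot tell how well the implied SE describes the deposited p. Alternatives were other q thresholds, a recomputed adjustment, a normal p from the statistic, a fold minimum, an FPKM minimum, a pseudocount, centring, and rows with 1 symbol. A planned search of promoters for motifs was not run, as no sequence was used here. Python 3.11.15, pandas 2.3.3 and scipy 1.17.1 were used.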

Additional observations from a re-analysis of the deposited data

How the results depend on the processing

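No member was called higher under any alternative, and the members' medians kept their sign and stayed within 1 implied SE. At a q under 0.01 the members called lower numbered 3 in the SIN3 table and 13 in the double table, and the pathway genes 6 in the double table; at a q under 0.1, 7 pathway genes were lower in the SIN3 table. Where p was taken from the deposited statistic on the normal scale, 0 members and 0 pathway genes were called lower in either table, although 5 and 14 of the 44 members had an unadjusted p under 0.05 on that scale, beside 5.27% and 6.01% of all tested rows. Among the 30 members with no overlapping row, a choice added after seeing the data, 26 and 23 were below 0 in the SIN3 and SAM-S tables, where fewer genes were counted. Centring on the median of all tested rows turned the SAM-S value of cana from -0.01 to 0.012; the other 347 alternative values of single genes kept their sign. Recomputed adjustment of the deposited p left the counts of called members at 13 and 25. A fold minimum of 1.5 left 9 and 20 members. No paired analysis was possible because the tables hold 1 combined value per group, and for the same reason no replicate could be left out. Depth is unknown, and the implied SE of about 0.2 limits what can be told for single genes. That SE rests on the deposited p, and the deposited statistic would imply a larger one.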
